A study of Homo sapiens with 9 samples.

Results

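The Notch receptors NOTCH1, NOTCH2 and NOTCH3, the ligands JAG1, JAG2 and DLL1, the nuclear factors RBPJ and MAML1 and the targets HES1 and HEY1 were followed in SKMEL28 cells, an established human melanoma line. Members were the rows of the deposited table whose symbol is one of these 10 names, out of 48162 genes. The 10 symbols gave 11 rows, because a second, 568-base gene model (ENSG00000270408), which lies within JAG1 on the same strand, also carries the symbol JAG1. That model held 0 to 4 reads per library and did not pass the filter on low counts, whereas the primary row of each of the 10 members passed it, among 15776 genes tested.

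Notch is a receptor that signals by being cut. A ligand on a neighbouring cell pulls on the receptor, ADAM proteases and then γ-secretase cleave it, and the freed intracellular domain joins the DNA-binding protein RBPJ and a Mastermind coactivator to switch on genes such as the HES and HEY repressors. In the melanocyte lineage the pathway is known for maintaining pigment stem cells, and it is often active in melanoma.

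RNA was sequenced from 9 libraries in 3 groups of 3. The shCont cells carried a control hairpin against GFP, the shp16 cells a hairpin against p16, the cell cycle inhibitor encoded by CDKN2A, and the shp16/shATR cells hairpins against both p16 and ATR, the kinase that responds to replication stress. All cells had been infected with lentivirus and selected in puromycin at 1 ug/ml for 3 days. The study counts each group's libraries as technical replicates from a single experiment, so every p-value below measures the spread between such libraries and not between separate infections. The letters a, b and c stand for the shp16/shATR libraries in table order, since their count columns all carry the same header. Scaled to FPKM, they equal the columns numbered 1, 2 and 3 of the FPKM table.

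Library totals ran from 17314662 to 23588174 reads on genes. All 8 melanocytic markers examined were detected, with a summed FPKM (reads scaled by gene length and by library total) of 4840 to 5460 for shCont, 2560 to 4760 for shp16 and 4010 to 4930 for shp16/shATR. SOX10 (279 to 330 FPKM), TYR (92.6 to 140) and DCT (283 to 446) had ranges that overlapped between all groups. MITF was at 109 to 166 FPKM for shCont, 142 to 161 for shp16 and 128 to 133 for shp16/shATR. Its shp16/shATR libraries thus lay below those of shp16 and inside the shCont range. PMEL was at 2950 to 3490 FPKM for shCont, 1110 to 2920 for shp16 and 2250 to 2990 for shp16/shATR. S100B was at 507 to 709, 296 to 402 and 546 to 608 FPKM in the same order. TYRP1 was at 40.7 to 51.2, 29.1 to 38.5 and 18.5 to 19.5 FPKM in group order. MLANA was highest in shp16/shATR, at 299 to 369, 300 to 373 and 390 to 419 FPKM. Of 8 markers of other cell types 7 were in the table under their symbol, with PTPRC at 0 in every library. Their summed FPKM was 0.589 to 0.941 in shCont, 4.39 to 5.31 in shp16 and 5.04 to 5.6 in shp16/shATR. Most of that difference was CDH1, at 0.348 to 0.62, 3.26 to 3.98 and 4.18 to 4.59 FPKM in the same order. CDH1 was listed as an epithelial marker, and its level by itself does not show cells of another type. KRT5 was at 0 in shCont and at most at 1.21 FPKM elsewhere. The part of both marker classes in the results below was not tested.

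The genes the hairpins target were examined first. CDKN2A was at 162, 113 and 103 CPM (counts scaled to library totals after TMM normalization, used below for each gene across libraries) in shCont replicates 1 to 3, at 78.1, 93.5 and 99.9 in shp16 and at 82.6, 90 and 82.4 in shp16/shATR a to c. All shp16 libraries were lower than those of shCont. The log2 fold change of CDKN2A in shp16 against shCont was -0.48 (SE 0.163), which did not pass edgeR's quasi-likelihood test (Benjamini-Hochberg adjusted p = 0.0723). Nor did the -0.26 (adjusted p = 0.0681) found without shCont replicate 1. In shp16/shATR against shCont it passed, at -0.57 (edgeR adjusted p = 0.0263), and at -0.35 (adjusted p = 0.0154) without shCont replicate 1. ATR was at 93.5, 83.4 and 85.6 CPM in shp16 and at 39.9, 40 and 41 CPM in shp16/shATR, a log2 fold change of -1.12 (SE 0.22, edgeR adjusted p = 0.0128).

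Replicate 1 stood apart in both shCont and shp16. The chi-square per degree of freedom between shCont replicate 1 and its partners was 68.5 and 83.4, against 5.15 between those partners, and shp16 replicate 1 gave 37.9 and 37.2 against 1.94. Long transcripts were low in shCont replicate 1. Its level relative to the other shCont libraries had a median ratio of 0.993 over all genes tested, 0.747 in the 3155 longest genes and 0.637 in the 805 genes over 8000 bases. The receptor and ligand transcripts are long: NOTCH2 is 11389 bases in the deposited annotation, NOTCH1 9371, NOTCH3 8071 and JAG1 5987. The same ratio was 0.432 for NOTCH2, 0.467 for NOTCH3, 0.611 for JAG1, 0.986 for NOTCH1 and 1.23 for HES1. Member values without shCont replicate 1 are given below beside those of all libraries.

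Before the values, the letters of promoters are shown for members whose window held the core RBPJ motif, since RBPJ is known to bind this sequence. RefSeq promoter windows (GRCh38.p14, 250 bases before to 50 after a gene start) were found for 8 of the 10 members, 12 windows in all. The core motif TGGGAA, searched on both strands, was in the HES1 window and in 1 of the 5 RBPJ windows. Capitals mark the motif or its reverse complement in the 100 bases that end 21 bases before the start, at chr3:194136028-194136127 (plus strand) for HES1 and chr4:26319626-26319725 (plus strand) for RBPJ.
HES1: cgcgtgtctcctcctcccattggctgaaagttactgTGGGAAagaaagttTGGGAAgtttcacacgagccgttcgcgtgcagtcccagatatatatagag
RBPJ: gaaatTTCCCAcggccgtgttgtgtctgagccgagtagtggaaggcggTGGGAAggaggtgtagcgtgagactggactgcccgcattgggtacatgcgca
The HES1 copies began 84 and 70 bases before the start, both on the gene's strand. The RBPJ copies began 72 bases before it on the gene's strand and 115 bases before it on the opposite strand. The motif is common: 24.0% of 35116 promoters held TGGGAA and 6.25% held the longer GTGGGAA, which contains it, so a match describes letters and not binding.

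Per length of transcript, NOTCH2 had the highest mean of the 10 members in each group. Its mean was 42.9 ± 18.5 FPKM (SD, n = 3) in shCont, 73 ± 0.964 FPKM in shp16 and 64.8 ± 1.65 FPKM when ATR was also targeted. In shCont its libraries overlapped those of HES1 (39.5 ± 3.48 FPKM) through replicate 1 alone, at 21.7 FPKM against 51.6 and 55.4 in the others, whereas in the other groups they lay above those of HEY1 (31 ± 2.27 and 30.1 ± 1.02 FPKM) and HES1 (31 ± 2.74 and 28.7 ± 1.4 FPKM), which overlapped each other. RBPJ followed at 11.2 ± 2.49, 13.4 ± 1.17 and 10.3 ± 0.42 FPKM. MAML1 lay at 6.25 ± 1.13, 5.23 ± 0.474 and 4.29 ± 0.276 FPKM and was above JAG1 in shCont (2.06 ± 0.641 FPKM), while the libraries of both overlapped in the groups with the p16 hairpin, where JAG1 was at 4.62 ± 0.542 and 4.31 ± 0.0906 FPKM. NOTCH1 (0.33 to 0.547 FPKM as group means), NOTCH3 (0.174 to 0.347), DLL1 (0.0495 to 0.336) and JAG2 (0.0322 to 0.139) were the lowest in every group.

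By summed FPKM, the receptor RNA was thus almost wholly NOTCH2. It made up 97.9% to 98.9% of the summed FPKM of NOTCH1 to NOTCH4 in shCont, 98.5% to 98.8% in shp16 and 98.7% to 99.2% in shp16/shATR. Among the ligands JAG1, JAG2, DLL1, DLL3 and DLL4, JAG1 held 23.2%, 40.2% and 49.9% of the summed FPKM in shCont replicates 1 to 3. It held 56.9% to 61.0% in shp16 and 56.8% to 63.5% in shp16/shATR, so both groups with the p16 hairpin lay above shCont. Most of the remainder was DLL3, a Delta-like protein found mainly inside cells, at 3.09 ± 0.89 FPKM in shCont, 2.93 ± 0.54 in shp16 and 2.55 ± 0.38 with both hairpins.

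**Figure D1:**
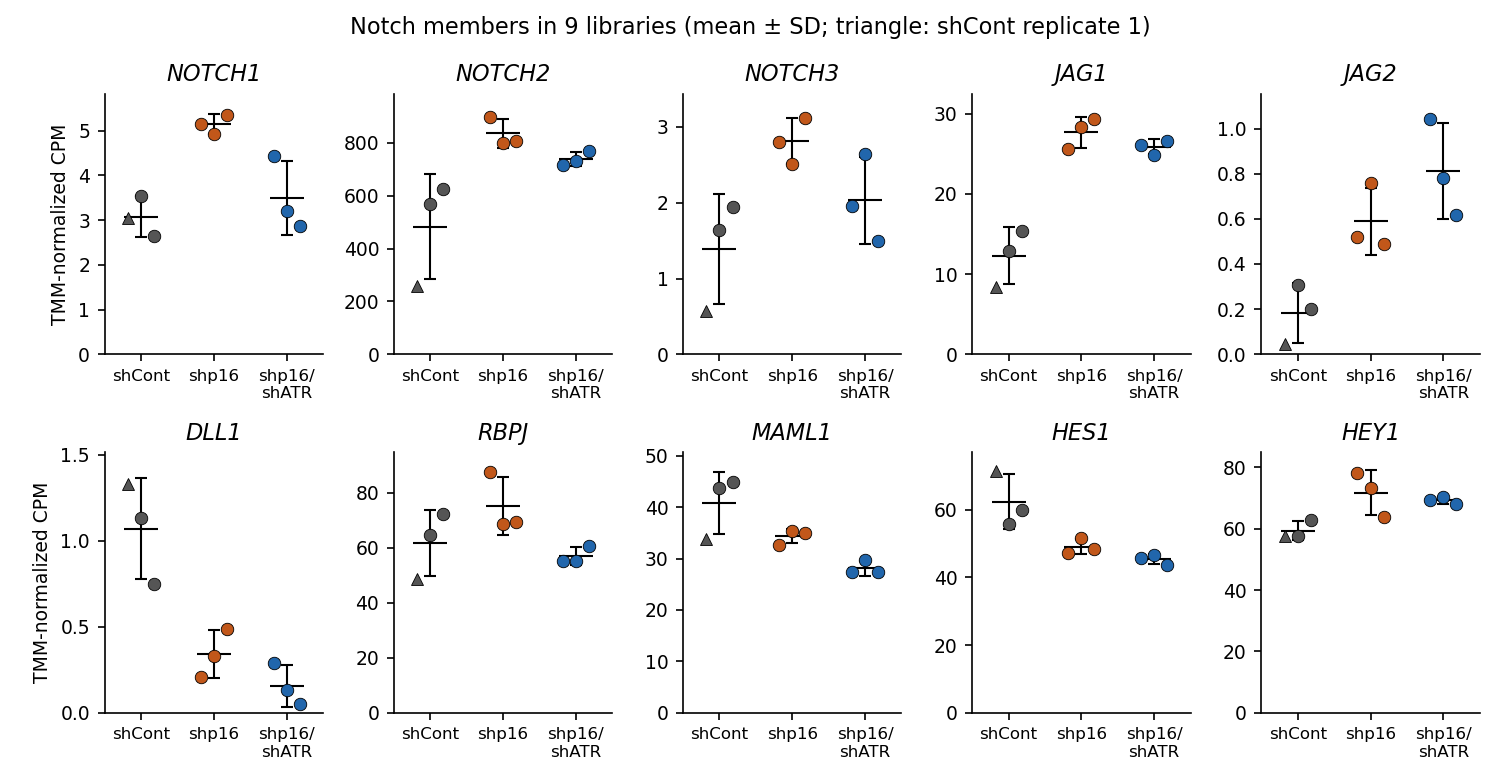
TMM-normalized CPM (y axis, from 0) of each Notch member in the 9 libraries by group (x axis); points are libraries, bars the mean ± SD of 3, and the triangle is shCont replicate 1. JAG1 lies between 8.44 and 15.4 CPM in shCont and between 24.8 and 29.3 CPM in the other groups, and NOTCH2 is lowest in shCont replicate 1 at 257 CPM.

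In shp16 against shCont, the comparison that asks what changed with the p16 hairpin, JAG1 and NOTCH1 rose and DLL1 fell, while the other 7 members did not pass the test. That is 3 of 10 members, beside 14.8% of all genes tested in the same comparison, with 2 of 10 higher beside 7.23% and 1 of 10 lower beside 7.59%. The members' median log2 fold change was 0.51 (0.36 without shCont replicate 1) and that of all genes tested -0.02. The libraries of the groups did not overlap for 8 of 10 members, against 33.6% of all genes. In bulk RNA a change per cell cannot be told apart from a change in the share of cells that express a gene.

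JAG1 (ENSG00000101384, chromosome 20, 10618332 to 10654694, minus strand, in the deposited GRCh37 coordinates), a ligand presented by neighbouring cells, was at 8.44, 12.9 and 15.4 CPM in shCont and at 25.6, 28.3 and 29.3 CPM in shp16. Every shp16 library lay above every shCont library. The rise was 2.27-fold, a log2 fold change of 1.18 (SE 0.181, edgeR adjusted p = 0.00128). It was 0.96 (SE 0.105, adjusted p = 6.63e-05) when shCont replicate 1 was left out. JAG1 passed the test under all 22 alternatives tried for this comparison, at 0.89 to 1.38.

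DLL1 (ENSG00000198719, chromosome 6, 170591294 to 170599561, minus strand), a ligand of the Delta family, moved the other way on few reads. It was at 30, 22 and 15 reads (1.33, 1.13 and 0.749 CPM) in shCont and at 4, 7 and 10 reads (0.208, 0.332 and 0.487 CPM) in shp16, and the groups did not overlap. The log2 fold change was -1.62 (SE 0.48, edgeR adjusted p = 0.0423). The call was lost without shCont replicate 1 or 2, any one of the shp16 libraries or shp16/shATR library b, with adjusted p of 0.0677 to 0.139 and a log2 fold change of -1.95 to -1.37. It was also lost with DESeq2 (-1.63, adjusted p = 0.0641). DLL1 passed under 7 of 21 alternatives, and the adjusted p reached 0.173 in the others.

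JAG2 (ENSG00000184916, chromosome 14, 105607318 to 105635161, minus strand), the other Jagged ligand, was near the limit of detection. It had 1, 6 and 4 reads in shCont (0.0442, 0.308 and 0.2 CPM) and 10, 16 and 10 reads in shp16 (0.519, 0.759 and 0.487 CPM). The groups did not overlap, but the log2 fold change of 1.69 (SE 0.562) did not pass the test (edgeR adjusted p = 0.0659), and it was 1.19 (adjusted p = 0.12) without shCont replicate 1.

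Among the receptors, NOTCH2 (ENSG00000134250, chromosome 1, 120454176 to 120612240, minus strand) had by far the most reads and, in absolute CPM, the widest spread within shCont. It was at 257, 567 and 626 CPM in shCont and at 899, 801 and 807 CPM in shp16. The groups did not overlap, with shCont replicate 1 far below its partners. The log2 fold change was 0.79 (SE 0.247), and the edgeR adjusted p was 0.0526. Without shCont replicate 1 the difference was smaller and its error smaller still, at 0.48 (SE 0.0881, edgeR adjusted p = 0.00217), and with each library's trend with gene length removed it was 0.65 (SE 0.138, adjusted p = 0.00586). It passed under 6 of 22 alternatives, among them without shCont replicate 3 (1.02, adjusted p = 0.0228) and with DESeq2 (0.8, adjusted p = 0.0119). In the other 16 the adjusted p reached 0.192, as with library size only (0.0782), a fit of only these groups (0.13), limma on log2(FPKM + 1) (0.102) and each shp16 library left out (0.104 to 0.145). NOTCH2NL (ENSG00000213240), a partial copy of NOTCH2 nearly identical in sequence, was at 5.92, 20.3 and 19.7 CPM in shCont and at 24.3, 21.8 and 22.9 CPM in shp16. NOTCH2 had 27.9 to 43.4 reads per NOTCH2NL read across libraries. How reads common to both genes were assigned is not given in the sources used here, so both values are uncertain to that extent.

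NOTCH1 (ENSG00000148400, chromosome 9, 139388896 to 139440314, minus strand) rose from 3.05, 3.54 and 2.65 CPM in shCont to 5.14, 4.93 and 5.36 CPM in shp16, with no overlap. This is 1.67-fold, a log2 fold change of 0.74 (SE 0.205, edgeR adjusted p = 0.0323). It was 0.73 (adjusted p = 0.0328) without shCont replicate 1. The call was lost without shCont replicate 3, any one of the shp16 libraries or shp16/shATR library b, at log2 fold changes of 0.64 to 0.77 and adjusted p of 0.0502 to 0.0964. With the length trend removed it was 0.54 (adjusted p = 0.125). NOTCH1 passed under 10 of 22 alternatives, and the adjusted p reached 0.232 in the others.

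NOTCH3 (ENSG00000074181, chromosome 19, 15270444 to 15311792, minus strand) was at 0.574, 1.64 and 1.95 CPM in shCont and at 2.8, 2.51 and 3.12 CPM in shp16. Although the groups did not overlap, the log2 fold change of 1.03 (SE 0.374) had an edgeR adjusted p of 0.0878. It was 0.64 (adjusted p = 0.114) without shCont replicate 1 and 1.36 (adjusted p = 0.0485) without shCont replicate 3.

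Neither nuclear factor passed the test with all libraries. RBPJ (ENSG00000168214, chromosome 4, 26165077 to 26436541, plus strand), the DNA-binding partner of the cleaved receptor, was at 48.5, 64.7 and 72.1 CPM in shCont and at 87.5, 68.7 and 69.4 CPM in shp16, and the groups overlapped (log2 fold change 0.28, SE 0.151, edgeR adjusted p = 0.236; 0.13, adjusted p = 0.419, without shCont replicate 1). MAML1 (ENSG00000161021, chromosome 5, 179159851 to 179223512, plus strand), the Mastermind coactivator, was at 33.8, 43.7 and 44.8 CPM in shCont and at 32.7, 35.3 and 35 CPM in shp16. Only shCont replicate 1 reached into the shp16 range. Its log2 fold change was -0.25 (SE 0.122, edgeR adjusted p = 0.204) with all libraries and -0.37 (SE 0.076, adjusted p = 0.00424) without shCont replicate 1.

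The targets had log2 fold changes of opposite sign, and neither passed the test with all libraries. HES1 (ENSG00000114315, chromosome 3, 193853934 to 193856521, plus strand), a repressor with RBPJ core motifs in the stretch shown above, was at 71.3, 55.8 and 60 CPM in shCont and at 47.2, 51.5 and 48.4 CPM in shp16. All shp16 libraries were lower, but the log2 fold change of -0.35 (SE 0.112) did not pass the test (edgeR adjusted p = 0.0586). Without shCont replicate 1 it was -0.25 (SE 0.0716, adjusted p = 0.0249). HEY1 (ENSG00000164683, chromosome 8, 80676245 to 80680098, minus strand), a related repressor, was at 57.6, 57.5 and 62.9 CPM in shCont and at 78.1, 73.2 and 63.7 CPM in shp16. The groups came close without overlapping, and the log2 fold change was 0.27 (SE 0.106, edgeR adjusted p = 0.11), or 0.24 (adjusted p = 0.0636) without shCont replicate 1.

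Without shCont replicate 1, 5 of the 10 members passed the test in this comparison, beside 25.9% of all genes tested. These were JAG1, NOTCH1 and NOTCH2 as higher and HES1 and MAML1 as lower, and DLL1 was no longer among them (-1.44, edgeR adjusted p = 0.0689). With shp16 replicate 1 left out as well, the same 5 passed, beside 32.7% of all genes. Leaving out shCont replicate 1 lowered edgeR's biological coefficient of variation from 0.149 to 0.0903.

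**Figure D2:**
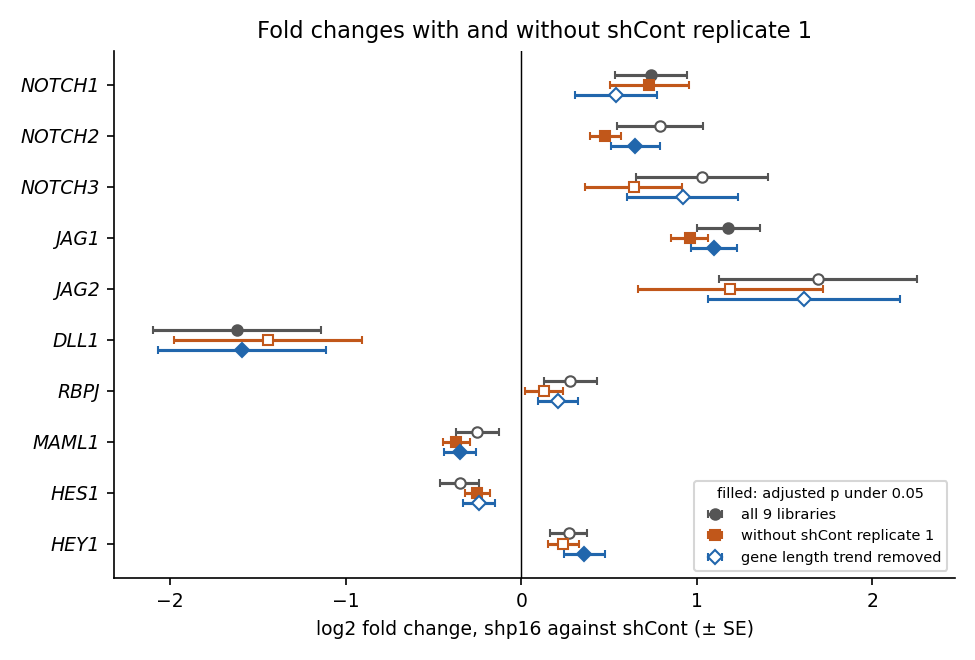
Log2 fold change in shp16 against shCont (x axis, ± SE) of each member (y axis) with all 9 libraries (circles), without shCont replicate 1 (squares) and with the gene length trend removed (diamonds); filled symbols have an edgeR adjusted p under 0.05. NOTCH2 is at 0.79, 0.48 and 0.65 and is filled in the last 2 of these, whereas JAG1 is filled in all 3.

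The comparison of shp16/shATR against shp16 asks what changed with the added ATR hairpin. In it, 0 of 10 members passed edgeR's quasi-likelihood test, beside 6.22% of all genes tested (2.73% higher and 3.49% lower). At an unadjusted p under 0.05 the count was 3, and DESeq2 and limma on log2 FPKM gave 0 as well. Of the 10 log2 fold changes 9 were below 0, with a median of -0.23 against 0.00214 over all genes tested. The libraries did not overlap for 5 of 10 members, beside 37.7% of all genes. These were NOTCH1, NOTCH2, RBPJ, MAML1 and HES1, each lower in shp16/shATR. This comparison shares the shp16 libraries with the one above. The sample titles do not say which ATR hairpin was used. Effects of loss of ATR, of the hairpin itself and of any further infection cannot be told apart here.

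RBPJ was at 55.1, 55.3 and 60.7 CPM in shp16/shATR libraries a, b and c, all below the lowest shp16 library at 68.7 CPM. Its log2 fold change was -0.40 (SE 0.152, edgeR adjusted p = 0.158). MAML1 was at 27.3, 29.8 and 27.4 CPM, again below each shp16 library, with a log2 fold change of -0.29 (SE 0.123, edgeR adjusted p = 0.218). Without shCont replicate 1, which enters this comparison only through the scaling, the shared estimate of spread and the set of genes tested, the values were -0.40 (adjusted p = 0.0136) for RBPJ and -0.29 (adjusted p = 0.0131) for MAML1. These 2 of 10 members passed then, beside 19.9% of all genes. The same 2 passed, beside 26.7%, when shp16 replicate 1 was also left out. RBPJ was then at -0.28 (edgeR adjusted p = 0.0036) and MAML1 at -0.33 (0.00256). With only shp16 replicate 1 left out, RBPJ was at -0.28 (edgeR adjusted p = 0.422) and MAML1 at -0.32 (0.27), and neither passed.

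NOTCH1 was at 4.44, 3.2 and 2.87 CPM in shp16/shATR a to c, all below the lowest shp16 library, with b and c inside the shCont range. The log2 fold change against shp16 was -0.56 with a 95% interval of -0.96 to -0.16 (from the SE, by the normal approximation), and the edgeR adjusted p was 0.141. NOTCH2 was at 717, 731 and 768 CPM, each below the shp16 libraries, a difference of -0.18 with an interval of -0.66 to 0.3 (edgeR adjusted p = 0.759). NOTCH3 was at 1.96, 2.64 and 1.49 CPM, overlapping shp16, at -0.46 (interval -1.17 to 0.24).

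The ligands kept wide intervals except JAG1. JAG1 was at 26.1, 24.8 and 26.6 CPM in shp16/shATR, within or just under its shp16 range, a difference of -0.10 with an interval of -0.44 to 0.24 (edgeR adjusted p = 0.813). JAG2 had 18, 18 and 12 reads (1.04, 0.779 and 0.615 CPM), a log2 fold change of 0.45 (interval -0.45 to 1.34). DLL1 had 5, 3 and 1 reads (0.288, 0.13 and 0.0512 CPM), a log2 fold change of -1.15 (interval -2.39 to 0.08), and at this depth a further fall could not be told from none.

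Of the targets, HES1 was at 45.7, 46.6 and 43.7 CPM in shp16/shATR, just under the shp16 libraries, with a log2 fold change of -0.11 (interval -0.33 to 0.11, edgeR adjusted p = 0.65). HEY1 was at 69.4, 70.3 and 67.9 CPM, inside the shp16 range, with a log2 fold change of -0.05 (interval -0.26 to 0.16). NOTCH2NL was at 23, 23.3 and 26 CPM, a log2 fold change of 0.07.

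**Figure D3:**
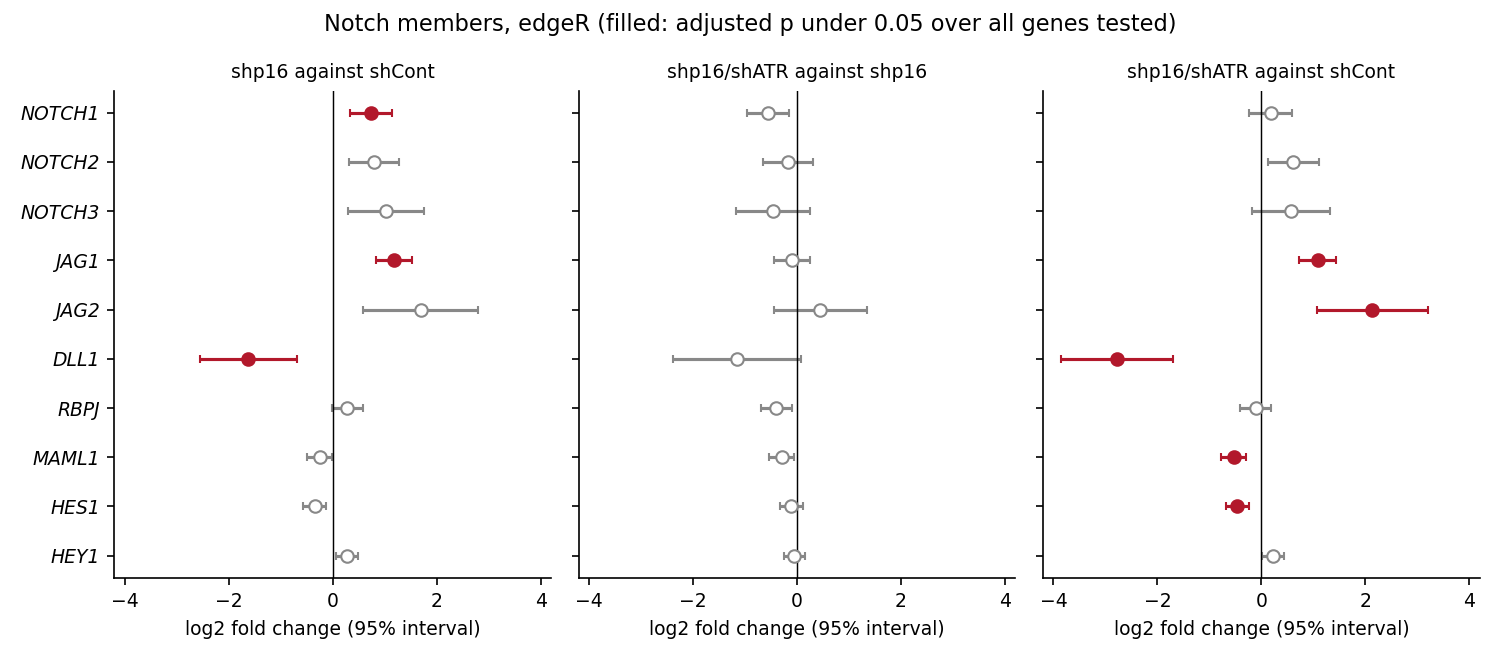
Log2 fold changes (x axis, with 95% intervals) of the 10 members (y axis) in each of the 3 comparisons; filled red symbols have an edgeR adjusted p under 0.05 over all genes tested. Filled are 3 members in shp16 against shCont, 0 in shp16/shATR against shp16 and 5 in shp16/shATR against shCont.

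The double knockdown was also set against shCont, which shares libraries with both comparisons above. Here 5 of 10 members passed, beside 23.6% of all genes tested, with JAG1 and JAG2 higher (2 of 10, beside 10.9%) and DLL1, HES1 and MAML1 lower (3 of 10, beside 12.7%). Without overlap were 7 of 10 members, beside 41.5% of all genes. JAG1 rose 2.11-fold (log2 fold change 1.08, SE 0.181, edgeR adjusted p = 0.00134) and JAG2 4.39-fold, with 11 reads over the shCont libraries and 48 over the shp16/shATR libraries (2.13, SE 0.544, adjusted p = 0.0149). The JAG2 call was lost without library a (1.93, adjusted p = 0.0632), and JAG2 passed under 15 of 17 alternatives. DLL1 went from 67 reads over the shCont libraries to 9, a log2 fold change of -2.77 (SE 0.55, edgeR adjusted p = 0.00374). It passed under 19 of 20 alternatives.

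HES1 was 1.38-fold lower in shp16/shATR than in shCont (-0.46, SE 0.113, edgeR adjusted p = 0.0118), and its call was lost without library c (-0.43, adjusted p = 0.0595). MAML1 was 1.45-fold lower (-0.53, SE 0.123, edgeR adjusted p = 0.00888). It passed under 19 of 21 alternatives, and the adjusted p reached 0.071 in the others. NOTCH2 had a log2 fold change of 0.61 (SE 0.247, edgeR adjusted p = 0.0951), and it passed without shCont replicate 1 (0.31, adjusted p = 0.0186) or shCont replicate 3 (0.84, adjusted p = 0.0338). HEY1 was at 0.22 (adjusted p = 0.156), NOTCH3 at 0.57 (0.316), NOTCH1 at 0.18 (0.581) and RBPJ at -0.11 (0.632). Without shCont replicate 1 the members that passed were 6 of 10, beside 33.3% of all genes. The log2 fold changes were then 0.86 for JAG1, 1.64 for JAG2, -2.59 for DLL1, -0.36 for HES1 and -0.66 for MAML1 (edgeR adjusted p from 5.48e-05 to 0.0275). With shp16 replicate 1 left out too, 8 of 10 passed, beside 44.3%.

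Other genes of the pathway were taken from a list of 62, of which 61 were in the table and 51 passed the filter. In shp16 against shCont 5 rose and 5 fell, so 10 of 51 were called beside the 14.8% of all genes, and the median log2 fold change was 0.13. Without shCont replicate 1 the calls were 15 in this comparison, 15 in shp16/shATR against shp16 and 22 in shp16/shATR against shCont, beside 25.9%, 19.9% and 33.3% of all genes. CTBP2, a corepressor, was at 72.6 to 74.2 CPM in shCont and at 110 to 113 CPM in shp16 (0.60, edgeR adjusted p = 0.00103). The acetyltransferase KAT2B (0.55, edgeR adjusted p = 0.0294), the deacetylase HDAC1 (0.38, adjusted p = 0.0265) and FBXW7 (0.57, adjusted p = 0.0358), the ubiquitin ligase adaptor that marks the Notch intracellular domain for destruction, also rose.

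The falls were spread over roles. NEURL1B, a Neuralized ubiquitin ligase that acts on ligand uptake, fell from between 5.3 and 8.34 CPM to between 1.41 and 2.08 CPM (-2.03, edgeR adjusted p = 0.000273). DNER, a membrane protein described as a Notch ligand, fell from between 7.2 and 8.19 CPM to between 1.85 and 2.6 CPM (-1.81, edgeR adjusted p = 0.000118). CCND1, cyclin D1 and a reported Notch target, fell from between 681 and 977 CPM to between 353 and 498 CPM (-1.06, edgeR adjusted p = 0.00146). L3MBTL3, a chromatin protein that binds RBPJ (-0.85, edgeR adjusted p = 0.0191), and the γ-secretase subunit NCSTN (-0.53, adjusted p = 0.0207) fell as well.

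In shp16/shATR against shp16, 2 of the 51 rose and 5 fell, beside the 6.22% of all genes called, with a median of -0.09. MAML3, a paralog of MAML1, rose from between 11.2 and 14.1 CPM to between 20.9 and 24.4 CPM (0.83, edgeR adjusted p = 0.026), whereas MAML1 itself did not pass the test. CCND1 rose to between 616 and 722 CPM (0.70, edgeR adjusted p = 0.0278). FURIN, the convertase that cuts the Notch precursor on its way to the cell surface, fell from between 278 and 286 CPM to between 149 and 162 CPM (-0.86, edgeR adjusted p = 0.000871). POFUT1, which adds the O-linked fucose that ligand binding needs, fell from between 104 and 116 CPM to between 70.3 and 75.6 CPM (-0.57, edgeR adjusted p = 0.00536). The corepressor TLE1 (-0.49, edgeR adjusted p = 0.0114) and MYC (-0.45, adjusted p = 0.0431) fell too.

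In shp16/shATR against shCont 7 rose and 10 fell, beside the 23.6% of all genes called, with a median of 0.04. The largest rises were MAML3 (1.40, edgeR adjusted p = 0.000452), the repressor HES7 (1.27, 0.00685), the receptor-cleaving protease ADAM17 (0.96, 0.00525) and MAML2 (0.67, just under the threshold). The largest falls were NEURL1B (-2.50, edgeR adjusted p = 4.95e-05), DNER (-2.37, 1.61e-05), the repressor HES4 (-1.52, 0.00307) and L3MBTL3 (-0.81, 0.0153). Leaving out shCont replicate 1 kept these 8 calls, with MAML2 at 0.38, ADAM17 at 0.72 and HES4 at -1.13. HES5 and HEYL, targets often used to read Notch activity, had 0 reads in all 9 libraries, and DLL4, a ligand, had 1, 11 and 7 reads over the 3 groups.

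**Figure D4:**
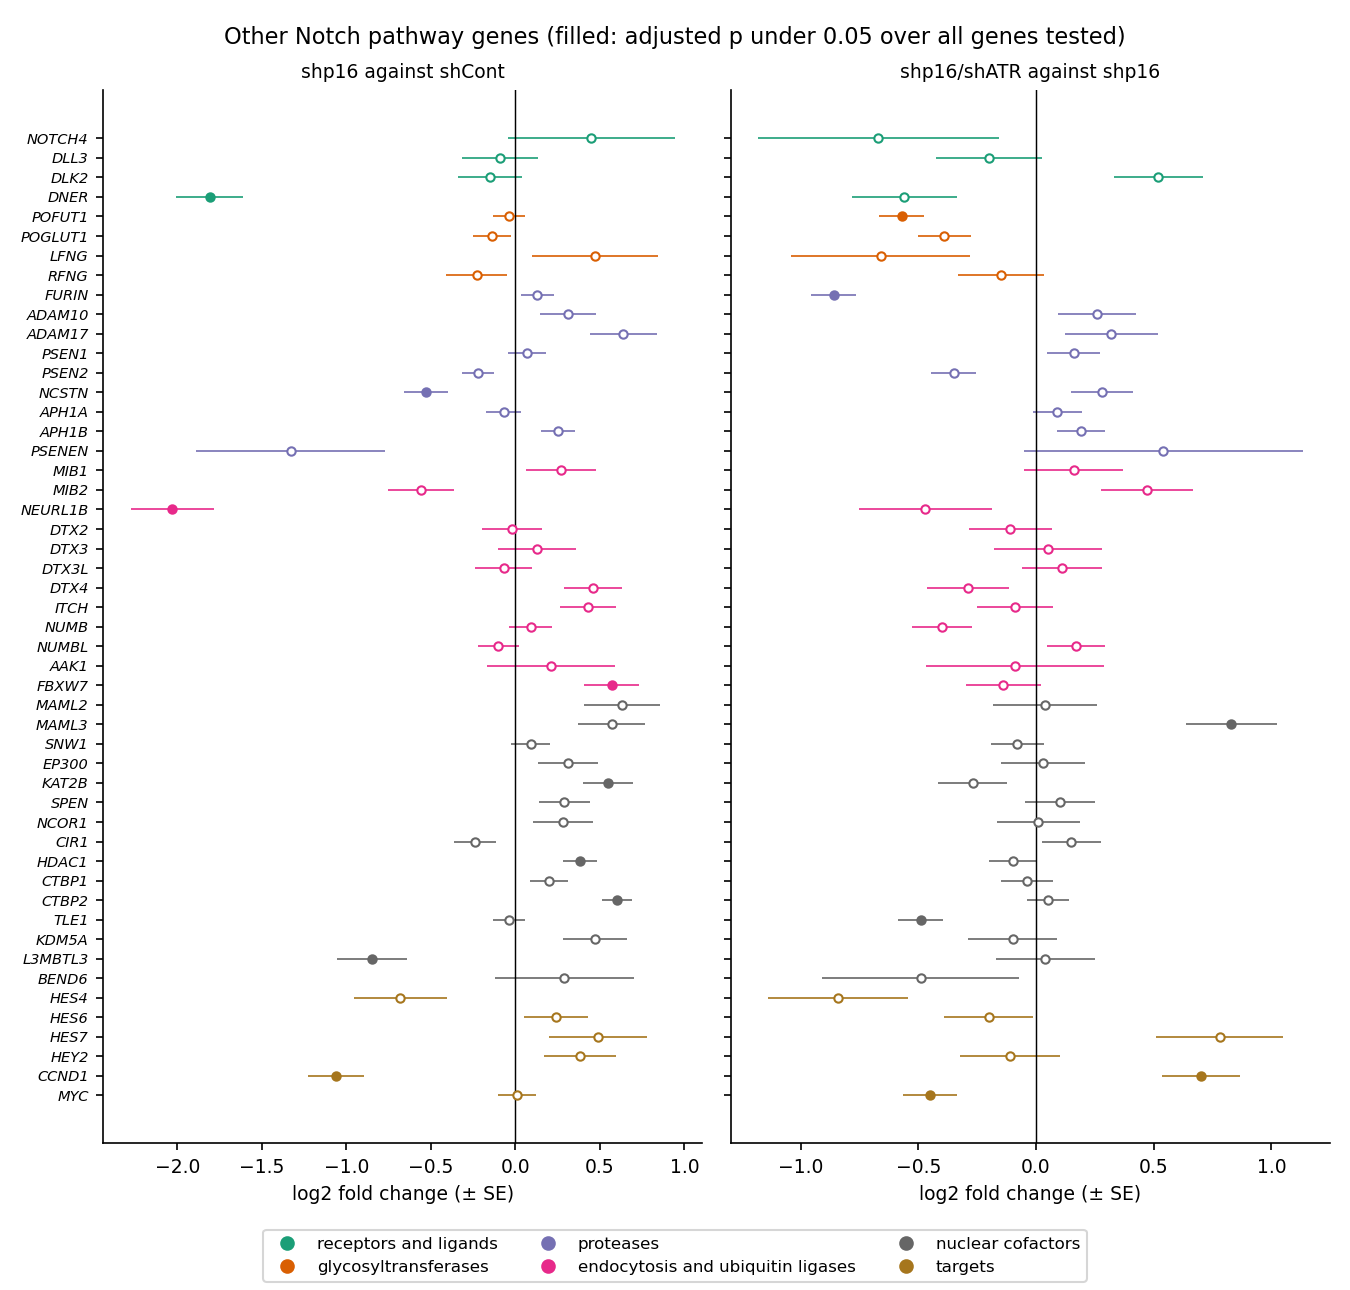
Log2 fold changes (x axis, ± SE) of 50 other pathway genes tested (y axis), coloured by role, in shp16 against shCont (left) and shp16/shATR against shp16 (right); filled symbols have an edgeR adjusted p under 0.05 over all genes tested. NEURL1B (-2.03) and DNER (-1.81) lie farthest to the left in the left panel, and FURIN (-0.86) and MAML3 (0.83) mark the ends of the called genes in the right panel.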

How the data were processed

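RNA of SKMEL28 cells was taken with Trizol, and Novogene prepared and sequenced the libraries. The authors deposited raw read counts per gene, not normalized, and FPKM values, which were checked to equal count over length and library total (largest relative difference 4.22e-07). The submitters' processing notes name STAR 2.6.1, DESeq2 version 2 and GRCh38, while the deposited coordinates are those of GRCh37. The counting program and its strand setting are not given in the sources used here.

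Counts were normalized with TMM and filtered with filterByExpr, and 15776 genes were fitted in 1 model of the 3 groups with the quasi-likelihood test of edgeR 4.0.16 (R 4.3.3), with Benjamini-Hochberg adjustment at 0.05. Fits were tested on simulated data. Alternatives used DESeq2 1.42.0, limma 3.58.1, other scalings and filters, and each library left out in turn. Figures were drawn with matplotlib 3.10.9.

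The members and lists were chosen with earlier results of these data known. All 10 members, the targeted genes, copies of NOTCH2 and RBPJ and up to 4 called pathway genes with the largest changes per direction and comparison were named. The 3 genes nearest in pattern were to be named for members called in both the p16 and the ATR comparison, of which there were 0. MYC, HDAC1, NCSTN, HES5, HEYL and DLL4 were named after their values were seen. A pathway gene stands in the counts but is not reported here. NOTCH2P1 and the RBPJ pseudogenes in the table had 0 reads. With 3 libraries per group, low members such as DLL1 and JAG2 rest on few reads. 182 symbols stand for more than 1 gene, so identifiers were used.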

Additional observations from a re-analysis of the deposited data

How the results depend on the processing

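Of 622 member fold changes under 23 alternatives, 557 kept their direction and side of the threshold, 32 lost and 29 gained a call, and 4 changed sign near 0. The last were HEY1 in shp16/shATR against shp16 without shp16 replicate 1 (0.01) and without both replicates 1 of shCont and shp16 (0.01), and in shp16/shATR against shCont NOTCH1 without library a (-0.02) and RBPJ without shCont replicate 3 (0.01). Leaving out 1 library at a time, these ranged from -0.13 to 0.01 for HEY1, -0.02 to 0.3 for NOTCH1 and -0.27 to 0.01 for RBPJ. JAG1 passed under each alternative against shCont. Counts below follow the order shp16 against shCont, shp16/shATR against shp16, shp16/shATR against shCont. Leaving out 1 library at a time gave 1 to 5, 0 to 2 and 4 to 6 members called, 5 to 15, 1 to 15 and 13 to 22 pathway genes, and 1344 to 4192, 292 to 3223 and 2354 to 5395 genes in all; the top of each range came without shCont replicate 1.

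In shp16 against shCont, where 3 members, 10 pathway genes and 2339 genes were called, no filter on low counts gave 5 members and 19 pathway genes, and removal of the length trend 5 members. A fit of only these groups gave 1, 6 and 1186. limma on log2(FPKM + 0.1) gave 1, 5 and 1292, limma with 1 added 1 and 5, and a threshold of 0.01 gave 1, 5 and 994. Without both replicates 1 the counts were 5, 21 and 5264. In shp16/shATR against shp16 (0, 7 and 981), only these groups gave 2, 15 and 2878, limma with 0.1 added 2 pathway genes and 357 in all, the threshold of 0.01 gave 2 pathway genes and 309 in all, and without both replicates 1 there were 2, 22 and 4304. In shp16/shATR against shCont (5, 17 and 3724), 3 members were called with a minimum of 10 counts, with limma with 0.1 added, with limma unfiltered and at 0.01, where 1974 genes were called in all. Without both replicates 1 there were 8, 31 and 7130. Removing the length trend and leaving out both replicates 1 were chosen after seeing the data. The cause of these shifts was not tested.

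No pairing by replicate number was seen. Deviations of same-numbered libraries correlated at r from -0.34 to 0.32, and those of other numbers at r from -0.4 to 0.46. With 3 libraries per group this check cannot exclude a pairing. With a replicate block on the counts of shCont and shp16, 1 member, 2 pathway genes and 423 genes were called. With the replicate block in limma on log2(FPKM + 1) the counts were 1, 5 and 1099, then 2 pathway genes and 313 genes, then 3 members. The count columns of shp16/shATR repeat a single header, and columns were assigned to samples by name only, so a block on those counts was not run.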
